A study of Mus musculus with 12 samples.

Results

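The 8 genes described here are interferon-stimulated genes: Rsad2, Isg20, Isg15, Ifit1, Ifit3, Irf7, Ifitm3 and Bst2. They were chosen by symbol from the rows of the count matrices of a mouse liver single-cell RNA sequencing study, with earlier results of these data known, among them a high Rsad2 level in erythroid cells. Differences in their level between cell classes are therefore given as a description, with no test. All 8 symbols were listed at both ages, 8 of 31053 genes at the embryonic stage E16.5 and of 22597 at P3, after birth. Their UMIs, the molecules counted by their molecular identifiers, were read in 164255 kept cells, 99689 at E16.5 and 64566 at P3.

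The study compared livers of Jag1+/+, Jag1Ndr/+ and Jag1Ndr/Ndr littermates from crosses of Jag1Ndr/+ mice, with 2 individuals of each genotype at each age. Jag1 encodes a Notch ligand that bile duct formation depends on, and Ndr (Nodder) is a germline missense allele used to model Alagille syndrome, so every cell type of a homozygote carries it. At P3 homozygotes were recognised by jaundice, per the labels. The 12 deposited matrices held 9 distinct libraries. At E16.5 the same matrix stood under both the Jag1+/+ and the Jag1Ndr/+ replicate 2 labels and was counted once, here called the shared replicate 2. The 5 libraries at that age were Jag1+/+ replicate 1, the shared replicate 2, Jag1Ndr/+ replicate 1 and Jag1Ndr/Ndr replicates 1 and 2. At P3, 6 of 15 pairs of matrices shared 53.445 to 100% of the barcodes of the smaller matrix, and the other 9 pairs 0.666 to 1.723%. The genotype behind libraries A and B, labelled Jag1+/+ replicates 1 and 2, is therefore unclear, since their barcodes also stood under homozygous labels. Library B also held all 15754 barcodes of the Jag1Ndr/+ replicate 2 matrix, so a heterozygous label stood on it too. Neither that matrix nor Jag1Ndr/Ndr replicate 2 at P3 was read as a further library. Library C held the 15145 barcodes found under the Jag1Ndr/Ndr replicate 1 label and not in library A, and library D was Jag1Ndr/+ replicate 1. Values below follow this order of libraries.

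Total UMIs per library ranged from 75745209 to 258642858, and the median per barcode passing the filters from 2961 to 9256. Transcripts of the Y-linked gene Ddx3y stood at 28.5 to 56.5 CPM, the UMI count scaled to a total of 1000000 UMIs, in 7 libraries. They stood at 0.00907 CPM in Jag1Ndr/+ replicate 1 and 0.0434 CPM in Jag1Ndr/Ndr replicate 2, where Xist stood at 321 and 613 CPM. Cells were clustered without the interferon genes, and each cluster was named from fixed markers, so a class is written as X-like. Every cluster called erythroid-like held 12 to 14 of 14 erythroid markers above the detection level. The unnamed cluster 113 at E16.5 also held 14 of 14, so this count does not set the class apart. No erythroid marker stood among the 10 leading genes of E16.5 clusters 3, 8 and 13 and P3 clusters 0, 5, 6 and 7. The mean scaled marker level of E16.5 cluster 12 was -0.091.

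Interferons are secreted proteins that signal through paired cell surface receptors to the kinases JAK1 and TYK2. The signal leads to the binding of a promoter element, the interferon-stimulated response element (ISRE), upstream of the target genes. Rsad2 (viperin) makes a chain-terminating nucleotide that blocks viral RNA synthesis. Isg15 is a ubiquitin-like protein attached to other proteins, and Isg20 is an exonuclease of RNA. Ifit1 and Ifit3 bind foreign RNA as a complex, and Irf7 is the transcription factor that amplifies interferon production. Ifitm3 blocks fusion of viruses with endosomes, and Bst2 (tetherin) holds budding particles at the cell surface. The fetal liver is a blood-forming organ, where erythroblasts mature around macrophages and fill with globin mRNA, and this role fades after birth.

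The 8 genes lie on 5 chromosomes of GRCm38 in the GENCODE M21 annotation. Rsad2 lies on the minus strand at chr12:26442746-26456452, beside Cmpk2, the neighbouring interferon-stimulated gene at chr12:26469204-26479837 on the plus strand. Isg15 lies at chr4:156199424-156200818 on the minus strand. Isg20 (chr7:78913424-78920396, plus), Ifitm3 (chr7:141009586-141010770, minus) and Irf7 (chr7:141262706-141266481, minus) share chromosome 7. Ifit3 (chr19:34583531-34588731) and Ifit1 (chr19:34640871-34650009) both lie on the plus strand of chromosome 19, and Bst2 lies at chr8:71534255-71537456 on the minus strand. Ifit3 has a close paralogue, Ifit3b, so its reads may be split between them.

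The promoters of the genes with the most distinct patterns are shown because the core of the ISRE was found in some of them and not in others. Each is the 250 bases before the RefSeq start site on GRCm38.p6, written 5′ to 3′ on the gene's strand. The windows are chr12:26456453-26456702 for Rsad2, chr4:156200819-156201068 for Isg15, chr19:34583279-34583528 for Ifit3 and chr7:78913174-78913423 for the first of 3 Isg20 start sites. Capitals mark matches to the core GAAANNGAAA on either strand, which may overlap.
Rsad2: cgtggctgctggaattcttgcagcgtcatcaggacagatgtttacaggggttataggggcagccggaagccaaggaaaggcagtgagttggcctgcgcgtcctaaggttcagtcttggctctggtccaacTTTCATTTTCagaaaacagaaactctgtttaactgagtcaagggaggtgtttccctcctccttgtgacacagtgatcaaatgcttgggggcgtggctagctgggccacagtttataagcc
Isg15: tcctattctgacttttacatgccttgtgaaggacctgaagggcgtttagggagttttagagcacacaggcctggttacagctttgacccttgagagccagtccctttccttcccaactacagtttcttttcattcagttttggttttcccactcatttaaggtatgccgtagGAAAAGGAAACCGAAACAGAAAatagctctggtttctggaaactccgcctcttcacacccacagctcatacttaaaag
Ifit3: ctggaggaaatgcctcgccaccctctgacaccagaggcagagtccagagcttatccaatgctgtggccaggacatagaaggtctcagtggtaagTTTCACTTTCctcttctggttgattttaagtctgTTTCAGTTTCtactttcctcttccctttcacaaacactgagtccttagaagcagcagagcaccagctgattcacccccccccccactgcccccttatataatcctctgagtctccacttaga
Isg20: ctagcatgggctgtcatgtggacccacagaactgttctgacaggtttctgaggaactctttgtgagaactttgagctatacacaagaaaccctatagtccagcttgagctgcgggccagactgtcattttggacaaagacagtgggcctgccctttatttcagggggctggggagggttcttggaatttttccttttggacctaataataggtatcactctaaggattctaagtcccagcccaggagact

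The ISRE core stood in the windows of 5 of the 8 genes: 1 match in Rsad2, 3 overlapping matches in Isg15 and 2 each in Ifit1, Ifit3 and Bst2. It stood in 978 of 32851 windows of the same length over all RefSeq start sites, 2.98%, and in 3.46% of 27025 genes. No match to these letters stood in the windows of Ifitm3, Irf7 or the 3 Isg20 start sites. The letters AGATAA, a core bound by erythroid GATA factors and searched on both strands, stood in 9.99% of all windows and, of the members, in 1 Isg20 window only. A match is a description of the letters and does not show binding.

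Rsad2 had the highest mean erythroid level of the 8 members at both ages, but not in every library. Isg20 was above it in Jag1Ndr/+ replicate 1 and Jag1Ndr/Ndr replicate 2 at E16.5, and Isg15 in library C at P3. At E16.5 the erythroid-like cells held 383.9 CPM of Rsad2 in Jag1+/+ replicate 1, 235.6 in the shared replicate 2, 51.1 in Jag1Ndr/+ replicate 1, 440.2 in Jag1Ndr/Ndr replicate 1 and 56.5 in Jag1Ndr/Ndr replicate 2. The libraries of each genotype arm thus lay on both sides of a wide gap. The pair of low libraries was the pair with Xist and almost no Ddx3y, in which every other class was low too. The part of that difference in the result was not tested.

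At P3, where Ddx3y was present in all 4 libraries, Rsad2 stood at 202.9, 500.1, 492.8 and 396.2 CPM in erythroid-like cells of libraries A to D. Its mean was 398.0 CPM ± 138.4 (SD, n = 4), against 233.5 ± 180.2 (SD, n = 5) at E16.5. With globin UMIs left out of the total, the order of the ages turned: the mean was 649.8 CPM ± 173.8 (SD, n = 4) at P3 and 758.1 ± 748.1 (SD, n = 5) at E16.5. The turn rested on Jag1Ndr/Ndr replicate 1, which held 1899.9 CPM on this scale: without it the E16.5 mean was 472.6 CPM ± 450.5 (SD, n = 4), below that of P3. The class also held different cells at each age: P3 cluster 6, with 3899 cells at 1.05% globin, was counted in it. The unnamed E16.5 cluster 113, with 2000 cells at 9.96% globin, was not, though C1qtnf12 and Minpp1 were leading genes of both clusters. Library A was the low one.

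Rsad2 UMIs were also counted in cell classes other than erythroid. Macrophage-like cells held 233.5, 152.2, 49.4, 447.0 and 43.5 CPM at E16.5 and 105.2, 271.4, 355.5 and 280.5 CPM at P3. Their ranges overlapped those of erythroid-like cells at both ages. Neutrophil-like cells held 114.1, 71.9, 27.8, 206.4 and 21.8 CPM at E16.5 and 18.1, 55.6, 87.4 and 79.6 at P3, below erythroid-like cells in every library. Monocyte-like cells held 100.3, 71.8, 23.4, 182.7 and 11.5 CPM at E16.5 and 4.28, 8.79, 23.6 and 26.1 at P3.

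Globin transcripts were also read in classes that do not make them. At E16.5 globin made up 48.3 to 76.8% of UMIs in erythroid-like, 17.9 to 31.1% in B-like and 9.90 to 18.1% in monocyte-like cells. At P3 the shares were 34.2 to 50.7%, 3.34 to 10.5% and 0.320 to 0.557%. Per 1000 globin UMIs, erythroid-like cells at E16.5 held 0.585, 0.488, 0.0721, 0.573 and 0.0928 Rsad2 UMIs. Neutrophil-like cells held 0.873, 0.601, 0.113, 1.20 and 0.136, and macrophage-like cells 0.875, 0.724, 0.123, 1.34 and 0.159. The same pair of libraries was low in all 3 classes.

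At P3 erythroid-like cells held 0.400, 1.46, 1.29 and 1.06 Rsad2 UMIs per 1000 globin UMIs, and hepatocyte-like cells 0.310, 1.17, 1.09 and 0.850. The ratio in B-like cells was 0.299, 0.956, 0.832 and 0.778. Macrophage-like cells held 0.746, 2.68, 3.20 and 2.27, above erythroid-like cells in all 4 libraries. The ratio was also above that of erythroid-like cells in all 4 libraries in endothelial-like (1.09, 2.56, 3.07 and 2.79), monocyte-like (0.768, 2.75, 4.74 and 5.00), basophil-like and mast-like (0.802, 2.36, 3.05 and 2.22) and megakaryocyte-like cells (0.476, 3.26, 2.64 and 2.13). In macrophage-like cluster 126 at P3, where globin was 0.400 to 0.925% of UMIs, Rsad2 stood at 53.2, 115.2, 278.8 and 187.7 CPM. Neutrophil-like cluster 102, with a globin share of 0.406%, held 2.39, 8.05, 9.90 and 8.32 CPM. The clusters of both classes spread widely and overlapped. Neutrophil-like cluster 113 held 1.29, 5.82, 6.14 and 2.04 CPM, and cluster 100, at 23.7 to 28.8% globin, 54.2, 336.0, 321.8 and 273.5. Macrophage-like cluster 124 held 14.6, 34.9, 90.1 and 34.5 CPM, and cluster 106, at 25.1 to 39.1% globin, 219.0, 722.1, 532.7 and 440.4.

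**Figure D1:**
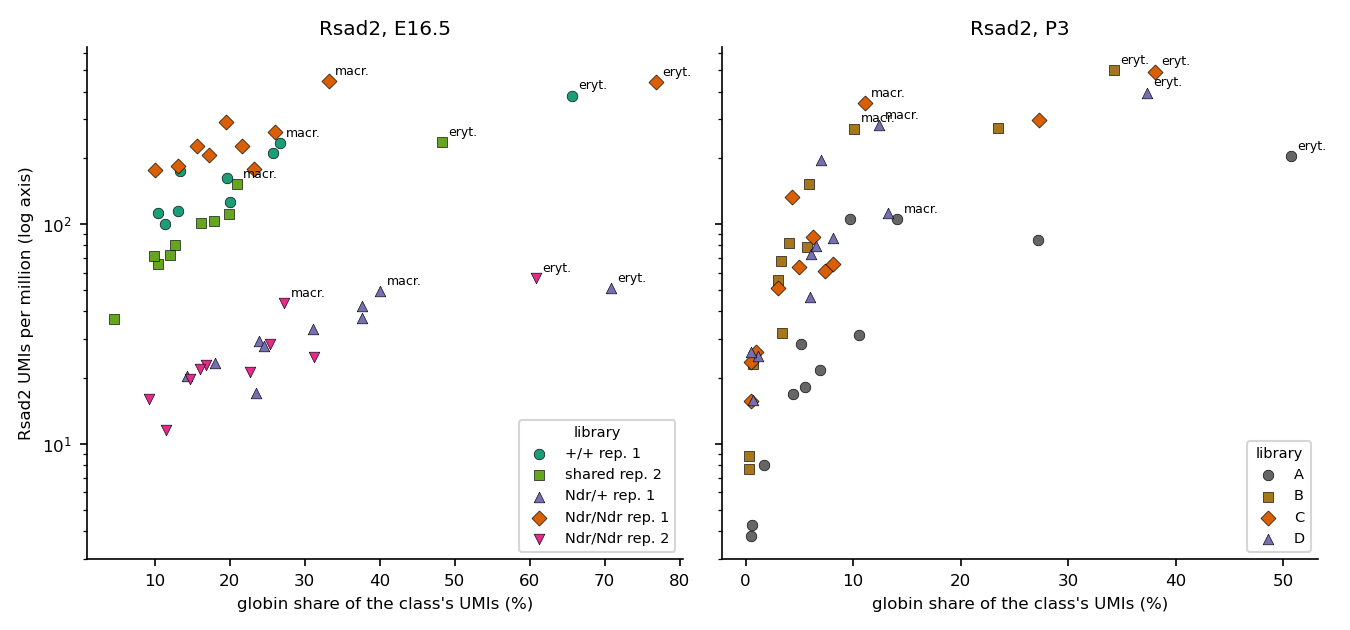
Rsad2 level (CPM, log axis) against the globin share of UMIs (%), with 1 point for each class and library at E16.5 (left) and P3 (right). At E16.5 the points of the libraries with little Ddx3y lie below the rest at each globin share; at P3 erythroid-like points lie at 34.2 to 50.7% globin and 202.9 to 500.1 CPM.

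The share of erythroid-like cells with an Rsad2 UMI was read after thinning each cell to 1000 UMIs. It was 25.8, 17.3, 4.54, 32.5 and 5.03% at E16.5 and 16.7, 37.0, 35.8 and 30.1% at P3. In neutrophil-like cells, where the source of Rsad2 UMIs was not tested, it was 10.6, 7.94, 2.57, 18.0 and 3.07% at E16.5 and 1.51, 4.71, 5.03 and 6.03% at P3. Erythroid-like cells were above neutrophil-like cells in each of the 9 libraries. Without thinning, 18.9 to 83.1% of erythroid-like cells at E16.5 and 41.9 to 62.6% at P3 held at least 1 Rsad2 UMI. The 10% of cells with most Rsad2 held 39.3 to 75.8% of its erythroid UMIs at E16.5 and 45.1 to 59.4% at P3.

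Globin mRNA accumulates as erythroblasts mature, and erythroid-like cells at P3 were read by ranges of their globin share. Cells with under 5% globin held 12.0 CPM ± 6.54 on average (SD, n = 4), those with 20 to 40% held 57.6, 295.7, 270.4 and 184.6, and those with 60% or more held 352.4, 1149.9, 1085.9 and 887.8. The level climbed from range to range in each of the 4 libraries, with globin in the total or left out. P3 cluster 0, led by the late erythroid genes Tmcc2, Xpo7 and Slfn14 and with 78.0% globin, held 788.7, 1825.6, 1660.3 and 1224.2 CPM. The clusters with more globin were lower: cluster 1, with 7602 cells and 88.3% globin, held 155.4, 454.5, 424.2 and 358.1 CPM, and cluster 27, at 88.1%, held 283.1 CPM over its cells. The level thus did not climb with globin from cluster to cluster up to the end. Cluster 6, led by Ins2, Ins1, Mt2 and Car1 and at 1.05% globin, held 2.86, 14.1, 18.5 and 20.2 CPM.

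At E16.5 Rsad2 stood at 238.7, 161.7, 33.8, 360.3 and 39.4 CPM in erythroid-like cells with 20 to 40% globin. It stood at 631.0, 344.4, 56.0, 571.9 and 96.8 CPM at 40 to 60%, and at 394.9, 226.8, 50.9, 438.1 and 52.2 CPM at 60% or more. With globin in the total, the middle of these ranges was the highest in all 5 libraries. With globin UMIs left out, cells with 60% or more were the highest in 3 of 5: Jag1+/+ replicate 1 (1276.1 CPM at 40 to 60% and 1568.2 at 60% or more), Jag1Ndr/+ replicate 1 (111.6 and 210.9) and Jag1Ndr/Ndr replicate 1 (1086.9 and 2514.3). No library had 20 cells under 5% globin at this age. Within a globin range, the mean Rsad2 level was 869.0 CPM ± 362.0 at P3 and 232.6 ± 183.1 at E16.5 at 60% or more, and 529.5 ± 299.1 and 340.0 ± 263.8 at 40 to 60% (SD, n = 4 and 5). At 20 to 40% it was 202.1 CPM at P3 and 166.8 at E16.5, and at 5 to 20% 84.9 and 153.1. In this last range Jag1Ndr/+ replicate 1 had too few E16.5 cells to be read. The E16.5 mean there rested on 60 cells of Jag1Ndr/Ndr replicate 1 at 424.4 CPM, beside 63.4, 95.8 and 28.8 in the other libraries read. With globin UMIs left out, P3 was again the higher at 60% or more (4281.8 and 1030.1 CPM), 40 to 60% (1072.4 and 679.1) and 20 to 40% (289.0 and 246.2). It was the lower at 5 to 20% (95.6 and 183.6). There Jag1Ndr/Ndr replicate 1 held 509.9 CPM, and the other E16.5 libraries read held 76.0, 113.9 and 34.7. The libraries of the ages overlapped in each of these ranges on both scales. The erythroid-like cells of the libraries also lay in different clusters: in Jag1+/+ replicate 1, clusters 2 and 10 held 3495 and 6847 of 10971 cells. In Jag1Ndr/Ndr replicate 1, clusters 2, 12 and 13 held 2401, 6782 and 680 of 10314. Cluster 9 held 11987 of 17138 cells of Jag1Ndr/+ replicate 1 and 7583 of Jag1Ndr/Ndr replicate 2. Gm42418 was among the leading genes of clusters 2, 10 and 12 and AY036118 among those of clusters 2 and 12, and their part in the values was not tested.

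Isg15, the ubiquitin-like modifier, followed Rsad2 along globin at P3. It went from 3.80, 10.3, 22.3 and 5.96 CPM under 5% globin to 255.1, 814.0, 1161.1 and 671.4 at 60% or more. In the whole erythroid-like class it stood at 156.2, 382.1, 593.4 and 311.2 CPM, against 27.6, 11.0, 45.9, 72.7 and 22.2 at E16.5. The ages did not overlap. In thinned cells at P3, Isg15 was counted in 24.4, 42.2, 56.7 and 40.0% of erythroid-like cells with an Rsad2 UMI and in 6.49, 13.6, 21.3 and 10.9% of those without. At E16.5 the shares were 2.72, 1.44, 8.10, 6.71 and 3.96% with an Rsad2 UMI and 1.68, 0.968, 3.38, 4.44 and 1.90% without.

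Isg20, the exonuclease, was present along the whole erythroid series. At P3, with globin in the total, it was highest at 40 to 60% globin, with 404.0, 613.2, 481.8 and 519.6 CPM, and stood at 235.0, 369.1, 326.6 and 367.8 at 60% or more. With globin UMIs left out it was highest at 60% or more in all 4 libraries, with 1533.5, 1653.0, 1679.5 and 1695.4 CPM against 838.7, 1235.3, 977.8 and 1052.5 at 40 to 60%. In all erythroid-like cells it held 133.7, 110.8, 132.3, 232.4 and 115.2 CPM at E16.5 and 183.1, 274.2, 271.0 and 288.8 at P3. Jag1Ndr/Ndr replicate 1 was high at E16.5 and library A low at P3. Irf7 at P3 was likewise highest at 40 to 60% with globin in the total, with 25.7, 107.8, 181.2 and 58.6 CPM. With globin UMIs left out it was highest at 60% or more, with 102.6, 357.2, 668.5 and 204.0 CPM against 53.4, 217.2, 367.7 and 118.7.

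**Figure D2:**
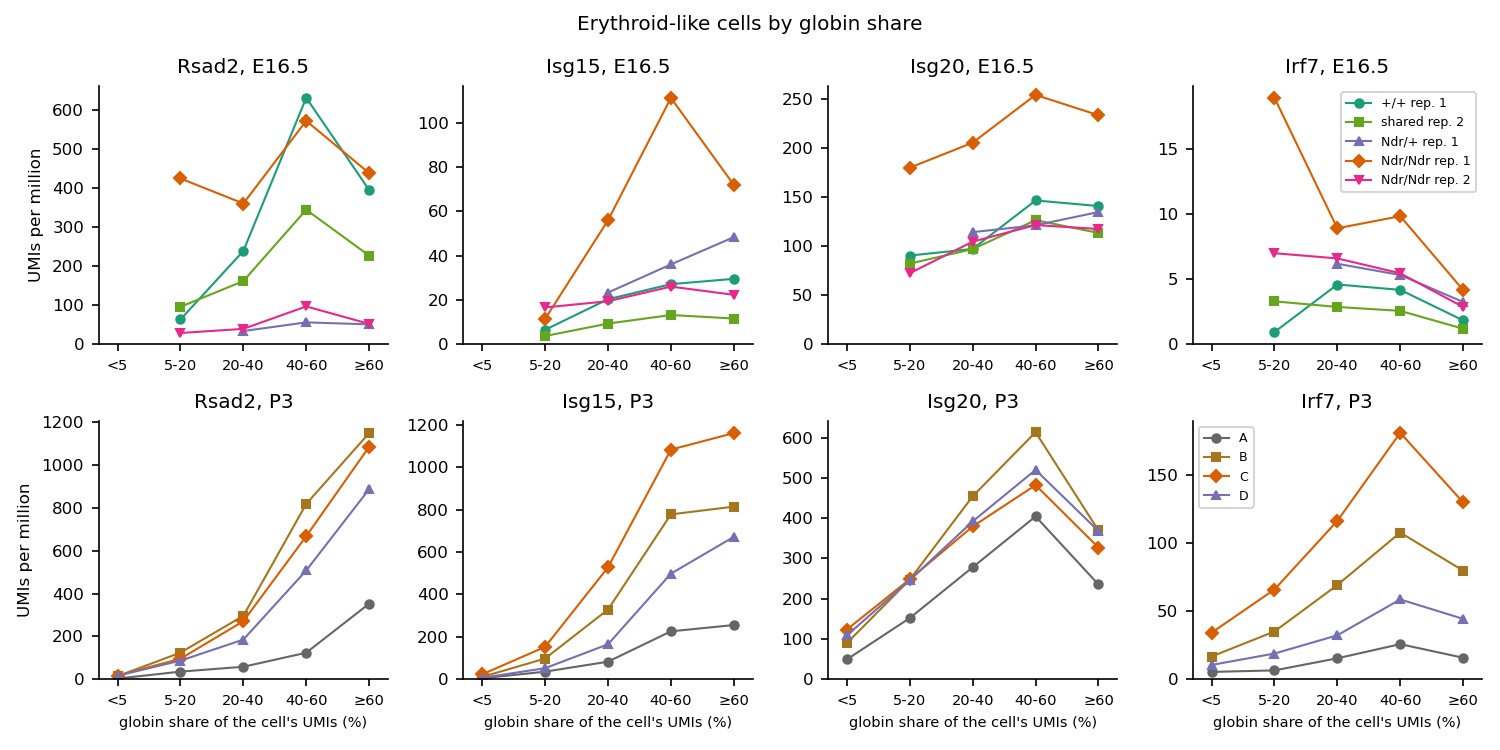
Level (CPM) of Rsad2, Isg15, Isg20 and Irf7 in erythroid-like cells by the globin share of the cell's UMIs, with 1 line for each library at E16.5 and P3. At P3 Rsad2 and Isg15 climb to 60% globin or more in every library, whereas Isg20 and Irf7 are highest at 40 to 60%; with globin UMIs left out of the total, Isg20 and Irf7 are highest at 60% or more as well.

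The other members were low in erythroid-like cells. Ifit3 stood below 1.3 CPM in each library, with means of 0.232 CPM ± 0.258 (SD, n = 5) at E16.5 and 0.801 ± 0.299 (SD, n = 4) at P3. Ifit1 averaged 1.47 CPM ± 0.347 and 9.47 ± 5.14, and Bst2 4.97 ± 1.43 and 17.4 ± 8.85. At P3 Bst2 stood at 45.8, 22.4, 55.7 and 17.5 CPM in cells under 5% globin. In those with 60% or more it stood at 3.36, 5.92, 11.6 and 3.35. Ifitm3 averaged 6.08 CPM ± 0.750 at E16.5 and 56.7 ± 40.2 at P3, where library C held 114.7 and library D 35.7. Of the 8 members, Rsad2, Isg15 and Isg20 were thus the ones above 100 CPM on average in erythroid-like cells at P3.

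Genes whose level followed Rsad2 over classes and libraries were named by Pearson's r of log2(CPM + 1), as a description, since points of a library share its depth and free RNA. At P3, over 51 points and 10204 genes, the closest included Slc4a1 (r = 0.95), the red cell anion exchanger, Fech, Fam210b and Slc25a37. Fech makes haem, and Slc25a37 carries iron into mitochondria. Isg15 ranked 15 (r = 0.89), Isg20 ranked 27 (r = 0.85), and Ifitm3 had r = -0.32. Cmpk2, beside Rsad2 on the chromosome, had r = 0.33.

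At E16.5, over 64 points and 9834 genes, the closest to Rsad2 were Gm16867 and Pttg1 (both r = 0.84), Eif2s3y (0.81), Ddx3y (0.80) and Uty (0.78). Eif2s3y, Ddx3y and Uty are Y-linked, and Isg15 ranked 44 (r = 0.39). Over globin ranges of erythroid-like cells at P3 (20 points), Ypel4 (0.98), March2, Mpp1, Isg15 and Ncf4 were closest. Over the 19 points at E16.5, Ctsf, Pink1, Slc48a1 (0.84), Pttg1 (0.82) and Gm16867 (0.81) were closest. For Isg15, the closest over classes and libraries at P3 were Rsad2 (0.89), Hbq1b (0.88), Dhrs11 (0.86), Fech (0.84) and Slc4a1 (0.83). At E16.5 they were Oasl2 (0.57), Hagh (0.56), Ifi27 (0.56), Fam220a (0.54) and Hbb-bs (0.54).

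Irf7, the amplifier of interferon production, had its highest P3 means in macrophage-like (369.3 CPM ± 181.4) and conventional dendritic-like cells (301.2 ± 133.2, SD, n = 4 each). The P3 means were 113.8 CPM in the unnamed cluster 105, 110.2 in monocyte-like and 97.6 in endothelial-like cells. At E16.5 the unnamed cluster 118 averaged 34.9 CPM ± 34.0, beside 33.7 ± 16.4 in macrophage-like cells (SD, n = 5 each). Macrophage-like cells held 31.6, 22.2, 28.8, 62.2 and 23.9 CPM at E16.5 and 161.4, 376.5, 602.4 and 336.8 at P3, with no overlap between ages. Conventional dendritic-like cells held 190.8, 326.5, 479.4 and 207.9 CPM at P3. In P3 macrophage-like cluster 126 it reached 253.6, 486.7, 995.7 and 464.6 CPM.

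Ifit3 and Ifit1, partners in RNA binding, had their highest means in macrophage-like and endothelial-like cells. Ifit3 held 17.1, 11.6, 15.4, 99.5 and 10.6 CPM in macrophage-like cells at E16.5 and 48.2, 88.3, 209.9 and 103.4 at P3. Ifit1 held 6.80, 7.16, 4.39, 38.0 and 5.23 CPM there at E16.5 and from 7.46 in library A to 43.2 in library C at P3. In endothelial-like cells Ifit1 held 6.22, 2.35, 4.82, 48.7 and 2.03 CPM at E16.5. Jag1Ndr/Ndr replicate 1 stood above the other 4 libraries each time, and in macrophage-like cells library C above the other 3. In endothelial-like cells at P3 library C was the lowest for Ifit1, with 12.4 CPM against 19.4, 20.0 and 26.9 in libraries A, B and D.

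Ifitm3, the endosomal membrane protein, reached the highest level of any member in any class, in monocyte-like cells. These held 978.9, 882.2, 1150.3, 1593.1 and 1170.1 CPM at E16.5 and 2123.2, 2658.2, 4285.3 and 2992.1 at P3, again without overlap. The P3 means were 1714.2 CPM ± 583.9 in mesenchymal-like cells (SD, n = 3), 1390.3 CPM ± 417.6 in conventional dendritic-like, 1386.2 ± 464.6 in endothelial-like, 1240.8 ± 285.1 in megakaryocyte-like and 983.8 ± 391.8 in macrophage-like cells (SD, n = 4 each). Bst2, the tether, had its highest mean among the named classes in endothelial-like cells, with 234.9, 185.0, 289.1, 501.0 and 300.7 CPM at E16.5 and 426.1, 151.4, 641.3 and 177.3 at P3. The unnamed cluster 118 at E16.5 held more, 504.3 CPM ± 170.4 (SD, n = 5). The endothelial-like class was small, with 67 to 301 cells per library.

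**Figure D3:**
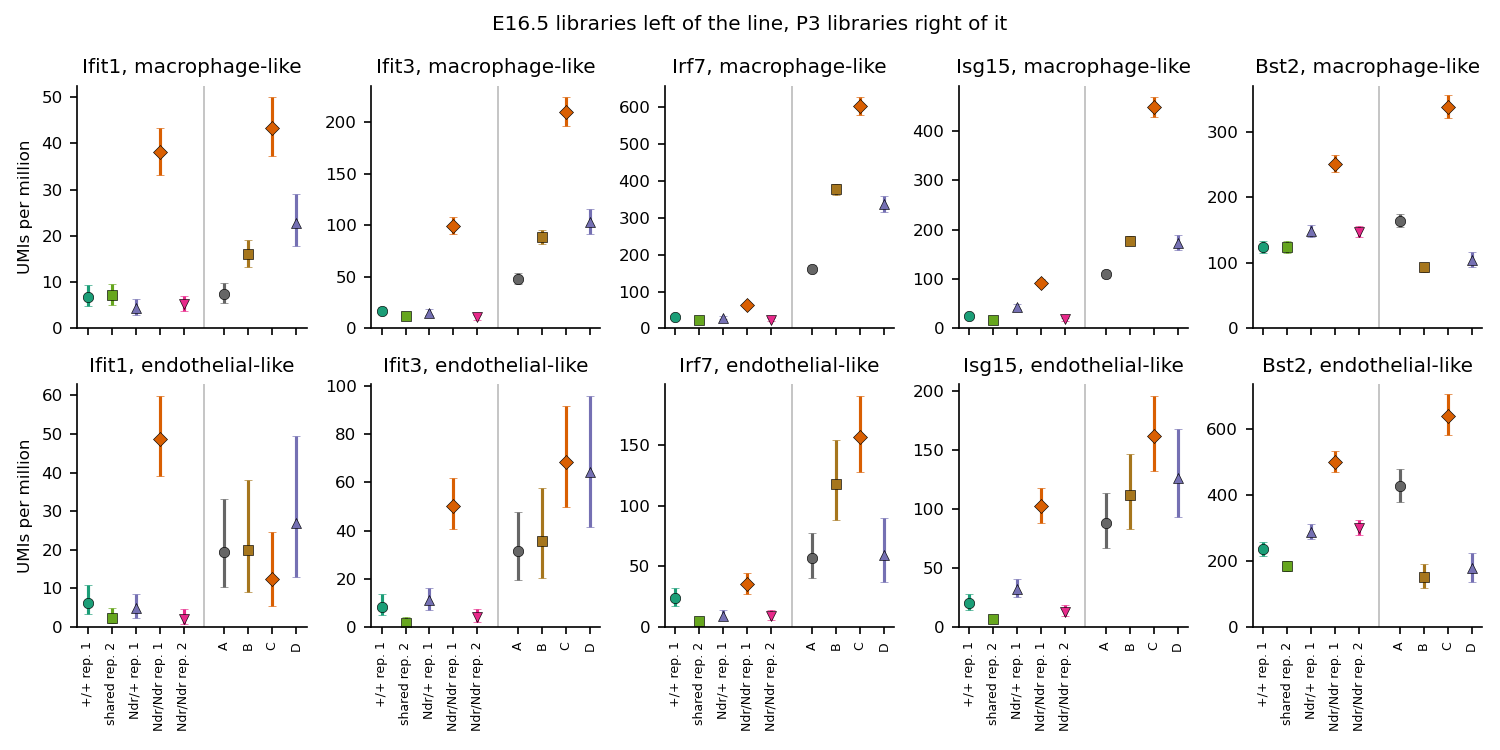
Level (CPM) of Ifit1, Ifit3, Irf7, Isg15 and Bst2 in macrophage-like and endothelial-like cells of the 9 libraries, with exact Poisson 95% intervals, which cover counting error only. Jag1Ndr/Ndr replicate 1 is the highest E16.5 library in each panel and library C the highest at P3 in all but Ifit1 in endothelial-like cells, for example 99.5 and 209.9 CPM of Ifit3 in macrophage-like cells.

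The genotype comparison asked whether homozygosity for Ndr went with a different level. At E16.5 the 2 Jag1Ndr/Ndr libraries were set against the 3 others, with edgeR's quasi-likelihood test on UMIs summed by library and class and Benjamini-Hochberg adjustment. Over 9 classes, 1 of 94501 pairs of class and gene was called at an adjusted p under 0.05, 0.00106% of those tested, and 1582 had an unadjusted p under 0.05. None of 62 pairs of class and member was called, while 9 lay below 0.05 before adjustment. By DESeq2 the counts were 0 and 6. With no filter on low counts, 17 of 72 member pairs were called, all higher in the Jag1Ndr/Ndr libraries. Over all genes that setting called 399 of 158251 pairs, 267 of them higher. Over all kept cells, 0 of 16141 genes were called, 0%, with 171 at an unadjusted p under 0.05, 2 of them members; DESeq2 called 4 genes there.

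A selection of 6 member differences by genotype was read in every setting, and 5 of these changed sign without 1 library. The remaining difference, Bst2 in neutrophil-like cells, kept its sign. These 6 were only a part of the pairs of class and member tested. Sign changes were not counted over the other pairs or over all genes, so the 5 of 6 describe the selected pairs only. Ifit1 in endothelial-like cells was 2.49 higher on the log2 scale in the Jag1Ndr/Ndr libraries (SE 0.868, edgeR adjusted p = 1.00, unadjusted 0.0147) and -1.10 without Jag1Ndr/Ndr replicate 1. Ifit3 in macrophage-like cells was 1.91 higher (SE 0.731, edgeR adjusted p = 1.00) and -0.59 without it. Isg15 in endothelial-like cells was 1.51 higher (SE 0.719) and -0.62 without it, and Irf7 in macrophage-like cells 0.62 higher (SE 0.422) and -0.32 without it. Rsad2 in erythroid-like cells was 0.98 higher (SE 1.01, edgeR adjusted p = 1.00) and -2.09 without that library, where the remaining homozygous library was also a library with little Ddx3y. Without Jag1Ndr/Ndr replicate 2, 53 of 98127 pairs of class and gene were called, 0.0540%, and 4 of 66 member pairs; the single homozygous library left was taken to vary as the other libraries do. The member pairs were Ifit1 in endothelial-like, macrophage-like and monocyte-like cells (3.49, 2.73 and 2.30) and Ifit3 in macrophage-like cells (2.80).

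Other interferon genes were also high in Jag1Ndr/Ndr replicate 1. It was the highest of 5 libraries for 50 of 65 genes of a list of interferon genes in endothelial-like cells, 76.9%, against 18.4% of all genes. The shares were 73.5 and 18.5% in monocyte-like cells and 63.4 and 8.64% in macrophage-like cells. In erythroid-like cells they were 4.55 and 0.593%, where the shared replicate 2, the library with least globin, was highest for 95.3% of all genes. At P3 library C was highest for 72.1% of list genes and 30.2% of all genes in erythroid-like cells, for 57.1 and 30.0% in monocyte-like cells, and for 22.2 and 28.9% in B-like cells. No gene of the list was called by genotype. The median log2 difference between genotypes was 0.417 for the list in monocyte-like cells and 0.465 in endothelial-like cells, the highest pair of the 9 classes, and 0.091 in hepatocyte-like cells, the lowest, beside -0.004 over all 94501 pairs.

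**Figure D4:**
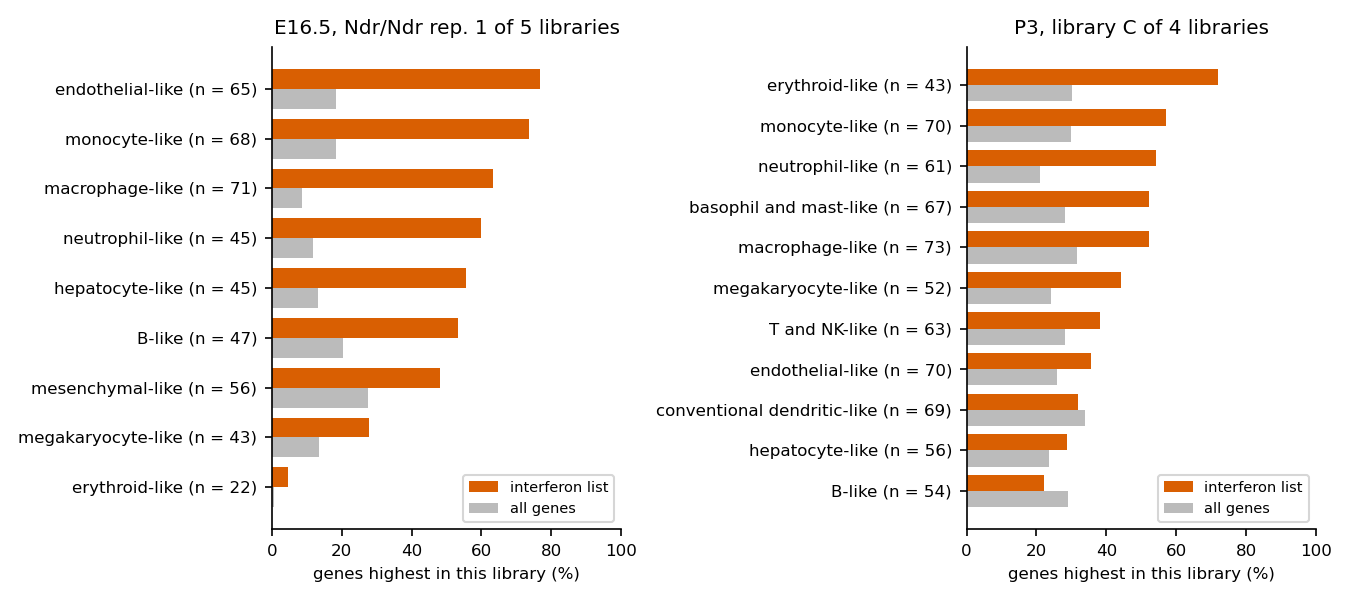
Share (%) of interferon list genes and of all genes whose level was highest in Jag1Ndr/Ndr replicate 1 among 5 libraries at E16.5, and in library C among 4 at P3, by class. List genes exceed all genes in endothelial-like cells at E16.5 (76.9 against 18.4%) and in erythroid-like cells at P3 (72.1 against 30.2%), and lie below them in B-like cells at P3 (22.2 against 28.9%).

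At P3 library C, the only one with just a homozygous label, was set beside library D, the only one with just a heterozygous label. With 1 library on each side there was no test, and exact Poisson intervals of the ratio cover counting error only. In erythroid-like cells the ratio C over D was 1.24 for Rsad2 (95% interval 1.22 to 1.27), 0.94 for Isg20 (0.91 to 0.96) and 1.91 for Isg15 (1.86 to 1.95). It was 2.01 for Ifit1 (1.75 to 2.32), 3.08 for Irf7 (2.88 to 3.29), 3.21 for Ifitm3 (3.02 to 3.42) and 3.40 for Bst2 (3.01 to 3.86). In macrophage-like cells it was 1.27 for Rsad2 (1.16 to 1.38), 2.59 for Isg15 (2.35 to 2.87), 2.03 for Ifit3 (1.78 to 2.32) and 3.24 for Bst2 (2.86 to 3.68). Over sets of cells with enough UMIs, the ratio was above 1 for Bst2 in 9 of 9 (2.46 to 3.62) and for Irf7 in 11 of 11 (1.16 to 3.08). Rsad2 was above 1 in 8 and below 1 in 4 of 13 sets, and Isg20 in 6 and 7. The sets are the classes, the unnamed cluster 105 and all kept cells pooled. The pooled set repeats the cells of the others and is not a further class.

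The age comparison set the 4 P3 libraries against the 5 E16.5 libraries. Age cannot be told apart from the digestion, which used TrypLE at E16.5 only, or from the software version and gene list in the files. Over 8 classes, edgeR's quasi-likelihood test called 24.4% of 84065 pairs of class and gene higher at P3 and 24.1% lower. Of 60 pairs of class and member, 22 were higher and 7 lower. Over all kept cells 27.1% of 14414 genes were higher and 25.8% lower, and of the members Irf7 (2.69, edgeR adjusted p = 0.000702), Isg15 (2.17, adjusted p = 0.0115) and Ifitm3 (1.72, adjusted p = 0.000179) rose and none fell. The fit scales libraries by TMM. On plain CPM the median of all genes rose by 1.07 log2 units in erythroid-like cells and by 0.59 over all kept cells from E16.5 to P3, while the differences below are those of the TMM-scaled fit, which are not the plain CPM difference less this median.

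Ifitm3 rose in all 8 classes, from 1.17 on the log2 scale in monocyte-like (SE 0.211) to 2.72 in hepatocyte-like cells (SE 0.277, edgeR adjusted p = 7.0e-06). Irf7 rose in all 7 classes where it was tested, from 1.49 in B-like to 2.91 in macrophage-like cells (SE 0.387, edgeR adjusted p = 7.5e-05). Isg15 rose in 5 classes: hepatocyte-like (3.05), macrophage-like (1.95), erythroid-like (1.87, edgeR adjusted p = 0.0305), neutrophil-like (1.75) and endothelial-like (1.49). In hepatocyte-like cells at P3 the high level lay in cluster 123, with 565 of 1290 cells, 61.2% globin and 291.7 CPM of Isg15. Hepatocyte-like clusters 110 and 122, at 0.767 and 1.11% globin, held 6.76 and 18.3 CPM, beside 10.9 in E16.5 cluster 103 at 7.07% globin and 31.1 in E16.5 cluster 100 at 52.1%. In neutrophil-like cells at P3, clusters 100 and 104, at 26.4 and 17.9% globin, held 175.4 and 132.6 CPM of Isg15, and clusters 120 and 125 held 34.6 and 55.0. The other 5, all under 0.5% globin, held 6.98 to 15.9 CPM, beside 6.84 to 30.0 in the neutrophil-like clusters at E16.5. Ifit1 rose in erythroid-like cells (1.42, edgeR adjusted p = 0.0168) and Ifit3 in B-like cells (1.94, edgeR adjusted p = 0.0468). Each of the Ifitm3 and Irf7 calls, and those of Isg15 in hepatocyte-like and macrophage-like cells, held in all 17 alternatives, none of which left out the globin-rich cells of a class. Leaving out any of the 7 libraries other than Jag1Ndr/Ndr replicate 1 and library A ended the Isg15 call in endothelial-like cells and the Ifit3 call in B-like cells (edgeR adjusted p up to 0.11 in each). Over all 17 alternatives, these calls held in 7 and 6. The neutrophil-like Isg15 call ended without any of Jag1+/+ replicate 1, the shared replicate 2, Jag1Ndr/Ndr replicate 2, library C and library D (up to 0.15) and with Ddx3y presence as a covariate (0.063). Leaving out library C ended the erythroid-like Ifit1 call (edgeR adjusted p = 0.064), as did the Ddx3y covariate (0.069).

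Rsad2 was called higher in no class. It fell by 2.68 on the log2 scale in monocyte-like cells (edgeR adjusted p = 0.00756), by 2.11 in megakaryocyte-like cells (adjusted p = 0.0223) and by 1.60 in B-like cells (adjusted p = 0.0291). Beside these, globin was 9.90 to 18.1% of UMIs at E16.5 and 0.320 to 0.557% at P3 in monocyte-like cells, and 4.56 to 15.7% and 0.707 to 1.69% in megakaryocyte-like cells. Isg20 fell in monocyte-like (-1.92), B-like (-1.80) and neutrophil-like cells (-0.91, edgeR adjusted p = 0.0482), and Bst2 in megakaryocyte-like cells (-0.88, adjusted p = 0.0208). The part of free erythroid RNA in the Rsad2, Isg20 and Isg15 differences outside erythroid-like cells was not tested. With only the 5 libraries labelled Jag1Ndr/+ or Jag1Ndr/Ndr alone, the Rsad2 calls in monocyte-like (edgeR adjusted p = 0.13), B-like (0.3) and megakaryocyte-like cells (0.12) and the Bst2 call (0.052) ended. The B-like Rsad2 call ended without Jag1+/+ replicate 1, Jag1Ndr/Ndr replicate 1 or library A, B or D (edgeR adjusted p up to 0.072) and the megakaryocyte-like call without Jag1+/+ replicate 1 (0.051), Jag1Ndr/Ndr replicate 1 (0.066) or library A (0.077). The neutrophil-like Isg20 call ended without Jag1Ndr/+ replicate 1, either Jag1Ndr/Ndr replicate or library A or B (up to 0.12), held in 7 of the 17 alternatives in all, and the Bst2 call without library B (0.055).

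In erythroid-like cells the Rsad2 difference was -0.55 with TMM (SE 0.669, edgeR adjusted p = 0.523) and 1.19 on plain CPM, where the median gene stood at 1.07, so its sign turned with the scale. These are values of the whole class, which at P3 included the low-globin cells of cluster 6. It did not pass the test, and with TMM it was 0.21 without Jag1Ndr/Ndr replicate 1. Isg20 gave -0.48 (SE 0.411) with TMM and 0.84 on plain CPM. Within globin ranges, its mean level was higher at P3 in all 4 ranges read at both ages. It was 223.1 CPM at P3 and 106.2 at E16.5 at 5 to 20%, where Jag1Ndr/+ replicate 1 had too few cells to be read. At 20 to 40% it was 375.6 and 123.7, at 40 to 60% 504.6 and 154.0, and at 60% or more 324.6 and 148.0. Isg15 gave 1.87 and 3.40, higher on both scales. The erythroid Isg15 call was lost without Jag1+/+ replicate 1 (edgeR adjusted p = 0.067), Jag1Ndr/Ndr replicate 2 (adjusted p = 0.062) or library C (adjusted p = 0.089), with the 5 libraries labelled Jag1Ndr/+ or Jag1Ndr/Ndr alone (adjusted p = 0.063), and with Ddx3y presence as a covariate (adjusted p = 0.1).

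**Figure D5:**
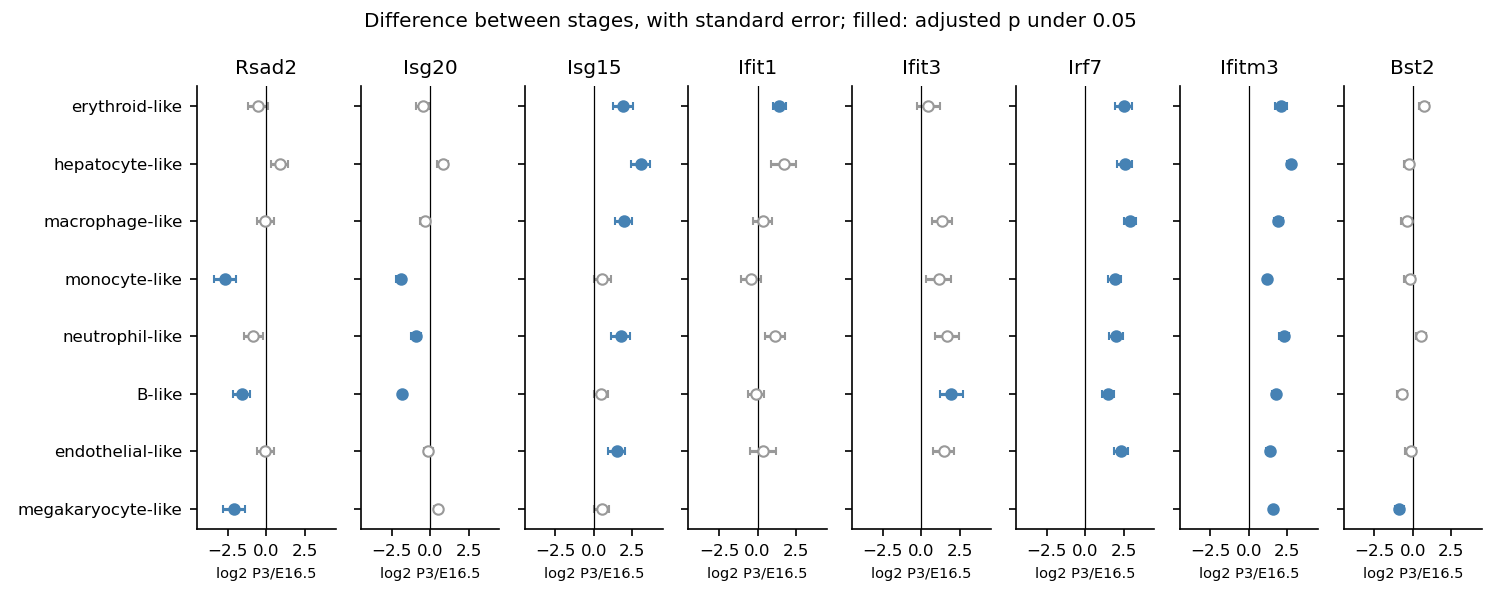
Log2 difference, P3 over E16.5, of each member in 8 classes, with its standard error; filled points have an edgeR adjusted p under 0.05. Ifitm3 (1.17 to 2.72) and Irf7 (1.49 to 2.91) lie above 0 in each class tested, and Rsad2 lies lowest in monocyte-like cells (-2.68).

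The rest of the interferon pathway was read from a list of 96 other genes, of which 93 were listed at E16.5 and 92 at P3. The interferon ligands were low: over all kept cells, Ifng averaged 0.427 CPM at E16.5 and 3.52 at P3, and Ifnb1 averaged 0.0474 CPM at E16.5 and had no UMI at P3. Receptors and signal transducers were higher at P3 in 31 and lower in 15 of 87 pairs of class and gene, where 24.4% of all pairs were higher and 24.1% lower. Jak1 averaged 57.3 CPM ± 13.2 (SD, n = 5) at E16.5 and 112.7 ± 11.8 (SD, n = 4) at P3 over all kept cells. Among the other interferon regulatory factors 22 of 37 pairs were higher and 1 lower, beside the same 24.4 and 24.1%. Irf8, a myeloid and B cell factor, averaged 29.2 CPM ± 8.66 and 114.9 ± 9.33 over all kept cells. Means over all kept cells also depend on the mix of classes. Erythroid-like cells were 66335 of 99689 at E16.5 and 31043 of 64566 at P3. On this scale the median of all genes rose by 0.59 log2 units. Sensors of foreign nucleic acid and their adaptors were higher in 31 and lower in 4 of 71 pairs, beside 24.4 and 24.1%.

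The other interferon-stimulated effectors, 47 genes, were mostly higher with age. They were higher at P3 in 175 and lower in 10 of 299 pairs, beside 24.4 and 24.1% of all pairs, with a median log2 difference of 0.91, beside 0.006 over all pairs. Sp100, a nuclear body protein, Psmb8, an immunoproteasome subunit, Lgals3bp, Ifi27l2a and Ifi35 were higher in 8 of 8 classes. Irgm1, an interferon-inducible GTPase, was lower in 7. The effectors summed to 1373.8, 1542.9, 1227.5, 2294.9 and 1269.5 CPM in macrophage-like cells at E16.5 and to 3313.3, 4622.4, 5883.6 and 4790.6 at P3. Of the negative regulators 10 of 30 pairs were higher and 8 lower, beside 24.4 and 24.1%. Socs3, an inhibitor of JAK kinases, was lower in 8 of 8 classes, with -4.05 on the log2 scale in erythroid-like cells (edgeR adjusted p = 1.2e-06). Cmpk2, the neighbour of Rsad2, rose in erythroid-like cells (0.96, edgeR adjusted p = 0.0129), where it averaged 6.09 CPM ± 2.03 and 25.0 ± 11.9.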

How the data were processed

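Single-cell RNA sequencing of mouse liver was deposited as 10x matrices of UMI counts per gene and barcode, made by the authors with Cell Ranger 2.1.1 and the mm10 genome per the submitters' processing notes; the file headers give software 3.1.0 at E16.5 and 3.0.2 at P3. Matrices that shared barcodes were reduced to 9 libraries. Barcodes under 1000 UMIs or over 15% mitochondrial UMIs were dropped, as were doublets called by Scrublet in scanpy 1.11.5 (4.113 to 13.446% of barcodes). Distinct libraries shared up to 0.94% of their barcodes. Clusters (Leiden, leidenalg 0.10.2, resolution 1) were made without the interferon genes and named from fixed markers. CPM is the UMI count of a gene scaled to 1000000 UMIs of a class in a library. Counts summed per library and class were tested with edgeR 4.0.16 (R 4.3.3) on the whole table, with at least 20 cells in every library, TMM and filterByExpr; DESeq2 1.42.0 was an alternative. The test was run on simulated counts with the same dispersion for every gene and libraries that differed only in size beyond the set changes. The real libraries differed in more than size, so that check does not show how the test performs on them. Intervals are exact Poisson at 95% and cover counting error only.

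The members and the interferon list were chosen with earlier results of these data known. The text names all members, list genes called in a comparison, up to 3 list genes of each subgroup with the highest level, and the 5 genes most like Rsad2 or Isg15, of which 1 is not reported here. Whether replicate numbers shared by genotypes pair the libraries could not be decided. Promoters were read from RefSeq (GRCm38.p6). A covariate for Ddx3y presence was added after seeing the data.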

Additional observations from a re-analysis of the deposited data

Results flagged for a closer look

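Of 130 sets of a member and a class with 4 or 5 libraries, 13 held a library far from the others by Dixon's Q on CPM. The cut-off flags about 1 in 20 sets when these are independent and their values normally distributed. These sets share libraries and normality was not checked, so the 13 cannot be weighed against that rate. In 11 of the 13 sets Jag1Ndr/Ndr replicate 1 was high at E16.5. In endothelial-like cells it held 102.3 CPM of Isg15 (others 6.38 to 32.0), 48.7 of Ifit1 (2.03 to 6.22) and 50.3 of Ifit3 (1.68 to 11.0). In macrophage-like cells it held 38.0 CPM of Ifit1 (4.39 to 7.16), 99.5 of Ifit3 (10.6 to 17.1), 62.2 of Irf7 (22.2 to 31.6) and 250.8 of Bst2 (123.8 to 149.0). It held 19.2 CPM of Ifit1 in monocyte-like cells (2.99 to 4.86), 68.1 of Bst2 in megakaryocyte-like cells (39.8 to 46.4) and 45.3 of Isg15 in mesenchymal-like cells (others at most 24.3). In erythroid-like cells it held 232.4 CPM of Isg20 (110.8 to 133.7). The other homozygous library at this age was the lowest of the 5 in 4 of these sets: Ifit1 in endothelial-like, Ifit3 in macrophage-like, Bst2 in megakaryocyte-like and Isg15 in mesenchymal-like cells. The other 2 were low libraries at P3: library B with 13.6 CPM of Isg20 in B-like cells (22.2 to 23.4), and library A with 183.1 CPM of Isg20 in erythroid-like cells (271.0 to 288.8).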

How the results depend on the processing

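By genotype, members had 0 calls, 17 with no filter on low counts and 0 to 4 with 1 library left out. Over all genes the 1 call became 19 with DESeq2, 399 with no filter and 0 to 53 with 1 library left out. With the replicate number as a block there were 2 calls, none a member. Of 62 member pairs, 32 then had an unadjusted edgeR p under 0.05, in place of 9. Over all 94501 pairs there were 2633 in place of 1582. Over all kept cells, same-numbered libraries deviated together with r of 0.21, 0.16 and -0.03. In erythroid-like cells r was 0.24, 0.24 and 0.03. The deviations of 2 homozygous libraries mirror each other, so these r cannot decide whether the numbers pair libraries. With 1 library left out, the log2 difference was -2.09 to 1.97 for Rsad2 in erythroid-like cells, -0.62 to 2.38 for Isg15 and -1.10 to 3.49 for Ifit1 in endothelial-like cells, and -0.59 to 2.80 for Ifit3 and -0.32 to 1.21 for Irf7 in macrophage-like cells. The negative values came without Jag1Ndr/Ndr replicate 1. The cause was not tested.

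By age, 19 of 29 member calls held in all 17 alternatives. With 1 library left out, members called higher numbered from 17 of 60 pairs (without library C) to 33 of 59 (without Jag1Ndr/Ndr replicate 1). Those called lower numbered from 9 of 60 to 4 of 59 in the same settings, the extremes. Over all genes, 19000 of 86219 and 19422 of 82875 pairs were higher there, and 18892 and 19179 lower. Rsad2 over all kept cells, -0.13, was -0.38 to 0.40 with 1 library left out: 0.06 without Jag1+/+ replicate 1, 0.40 without Jag1Ndr/Ndr replicate 1, 0.11 without library A and 0.25 with only libraries of a single heterozygous or homozygous label; in erythroid-like cells it was -0.83 to 0.21, the highest without Jag1Ndr/Ndr replicate 1. Without globin UMIs the erythroid mean of Rsad2 was 758.1 CPM at E16.5 in place of 233.5 and 649.8 at P3 in place of 398.0, so the order of the ages turned; without Jag1Ndr/Ndr replicate 1, a check chosen after seeing the data, the E16.5 mean was 472.6 and it did not. Small classes limit the depth: 67 to 301 endothelial-like cells per library.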
